A study of Mus musculus with 8 samples.

Results

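Mecom and 8 other genes of the PRDM family, Prdm16, Prdm1, Prdm2, Prdm4, Prdm8, Prdm9, Prdm10 and Prdm15, were followed across 2 fractions of mouse bone marrow. They were taken by gene symbol, with all reads of a gene ID added together, and are 9 of the 46113 genes in the files. RNA of 4 HSC libraries (hematopoietic stem cells; CD150+, CD34-, Sca1+, c-Kit+, Lineage-) and 4 HPC libraries (hematopoietic progenitor cells; the same gate but CD34+) was sequenced, all from C57BL/6 bone marrow at an age of 8 to 10 weeks. The protocol names 5000 sorted HSC and gives no cell number for HPC. It is not said whether the libraries of a fraction came from separate animals, so a p-value here reflects only how much these samples vary, and part of that may be technical. In these bulk samples, fewer cells of a type and less RNA per cell cannot be told apart.

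PRDM proteins carry a PR domain, a relative of the SET domain of histone methyltransferases, in most members next to zinc fingers that bind DNA. Some methylate histones themselves and others recruit enzymes that do, and many repress their target genes. In blood, Mecom (the MDS1 and EVI1 complex locus) and its closest relative Prdm16 are known from mouse knockouts as genes that long-term stem cells need, and Prdm1 as the repressor that drives plasma cell formation.

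The libraries held 16291733 to 19070313 exon reads in HSC and 18223082 to 20564901 in HPC, and 3 reads, the limit that a count of 0 allows, corresponded to 0.146 to 0.184 CPM, taken on the exon reads of each library. Other values in CPM are reads scaled to a common library size by TMM. This limit covers counting error only, since PCR copies were counted as reads. Markers of long-term stem cells (Mllt3, Procr, Fgd5, Hlf, Ctnnal1, Hoxb5) were higher in HSC for 6 of 6 genes, with summed levels of 833 to 1019 CPM in HSC, against 235 to 293 CPM in HPC. Markers of multipotent progenitors (Flt3, Cd48, Dntt, Satb1) were lower for 4 of 4, at 63.7 to 77.5 CPM in HSC, against 2047 to 2453 CPM in HPC. Cd34, by which the gates differ, averaged 120 CPM in HSC, against 1276 CPM in HPC (log2 -3.41, edgeR adjusted p = 5.7e-11). Slamf1, which encodes CD150, lay at 32.1 to 45.5 CPM in HSC, against 2.32 to 3.90 CPM in HPC, although both gates are labelled CD150+. Of the other sort markers, Ly6a was higher in HSC (log2 0.87, edgeR adjusted p = 3e-05). Kit missed the threshold (log2 0.31, edgeR adjusted p = 0.08).

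Mecom and Prdm16 are shown first by the DNA before their annotated starts, because these were the members that differed most between the fractions. RefSeq promoter windows (assembly GRCm38.p6) were at hand for 8 of the 9 members, 13 windows in all, and none for Prdm2. The 3 windows below are the 250 bases before a start, on the gene's own strand. They lie on the minus strand at chr3:30509760-30510009 (distal start of Mecom), chr3:30013205-30013454 (inner start of Mecom) and chr4:154636874-154637123 (Prdm16). Capitals mark a match to any of 4 short motifs of blood transcription factors, spelled out after the sequences and searched on both strands. None of the motifs contains another.
Mecom, distal start: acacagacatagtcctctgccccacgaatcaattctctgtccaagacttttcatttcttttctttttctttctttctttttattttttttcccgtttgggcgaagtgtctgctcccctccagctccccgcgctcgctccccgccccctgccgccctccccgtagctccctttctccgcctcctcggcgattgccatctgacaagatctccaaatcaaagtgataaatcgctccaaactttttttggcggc
Mecom, inner start: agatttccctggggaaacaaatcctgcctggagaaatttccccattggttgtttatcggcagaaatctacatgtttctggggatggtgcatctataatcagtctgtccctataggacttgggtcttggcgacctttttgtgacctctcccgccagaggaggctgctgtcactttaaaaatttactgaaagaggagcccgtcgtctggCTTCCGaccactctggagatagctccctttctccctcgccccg
Prdm16: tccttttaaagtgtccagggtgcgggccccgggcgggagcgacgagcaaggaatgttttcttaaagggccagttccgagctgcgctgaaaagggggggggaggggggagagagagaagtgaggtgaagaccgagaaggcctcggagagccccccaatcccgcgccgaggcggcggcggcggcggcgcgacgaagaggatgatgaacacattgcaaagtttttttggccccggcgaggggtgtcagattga
The distal Mecom window and the Prdm16 window held none of these letters, and the inner Mecom window held 1 ETS motif, read on the other strand. Over all 32851 windows of the same length, 13.6% held that motif of ETS factors, written CGGAAG on its forward strand. The RUNX motif searched was TGTGGT, held by 14.0% of the windows. For the E-box, the letters were CAGCTG and the share was 13%. The fourth search used AGATAA, known from Gata1 and Gata2, and found it in 9.99%. Only these exact spellings were searched, so related spellings were not counted. Among them are TGATAA in the distal Mecom window and AGATAG in the inner one. The searches therefore do not show that a window lacks a motif of these factors. GC content was 50.8% and 50.4% in the Mecom windows and 62.4% in that of Prdm16, beside a median of 52.4% over all windows. A match is a description of letters, not of a site.

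The distal start of Mecom and the start of Prdm16 share a run of 24 bases just after the start.
shared run: GCGCATGTGCGAAGGTGTCCAAAC
It covers bases 27 to 50 after the Mecom start (chr3:30509710-30509733) and bases 10 to 33 after the Prdm16 start (chr4:154636841-154636864), in the same orientation to both genes. The Mecom window ends there, so the run may be longer. Of the 32851 windows, with 50 bases after the start included, 2 held the run on the gene's strand, those of these genes. The longest run shared by any other pair of members was 11 bases. The sequences are given for the genes, and nothing in these libraries measures what is bound there.

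Mecom was the most abundant member in HSC, and the HSC and HPC fractions lay far apart. Mecom (NCBI gene 14013, chromosome 3, 29951296 to 30509783, minus strand, mm10) had 36.3, 41.6, 39.6 and 25.9 TPM in HSC libraries 1 to 4, against 5.94, 7.23, 7.27 and 3.97 TPM in HPC libraries 1 to 4. TPM is the authors' level per exon length, used here to compare genes with each other. It rests on the annotated exon length of each gene, so the order and shares of the genes depend on the annotation. No HSC library overlapped an HPC library, and library 4 was the lowest in each fraction. In exon reads, Mecom stood at 159.7 ± 22.8 CPM in HSC, against 28.3 ± 6.03 CPM in HPC (SD, n = 4 each), 5.65-fold higher, with a log2 change of 2.50 ± 0.16 (SE; edgeR quasi-likelihood test, adjusted p = 2.1e-08). The change lay between 2.36 and 2.59 when each library was left out in turn.

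Prdm16 encodes the relative of Mecom that is also known as a switch for brown fat cells. Prdm16 (gene 70673, chromosome 4, 154316122 to 154636873, minus strand) had 15.1, 16.3, 18.1 and 12.8 TPM in the HSC libraries, against 4.21, 4.57, 3.44 and 3.52 TPM in the HPC libraries. The fractions did not overlap. Its exon reads gave 69.6 ± 5.0 CPM in HSC, against 18.4 ± 2.35 CPM in HPC (SD, n = 4 each), 3.78-fold higher, with a log2 change of 1.92 ± 0.13 (edgeR adjusted p = 3.4e-08). Among the 12751 genes tested, 4.41% had a change at least as high as that of Mecom and 6.45% one at least as high as that of Prdm16.

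Of the 9 members, 8 passed the filter on low counts (filterByExpr), and Prdm8 did not. Mecom and Prdm16 were higher in HSC, where 19.6% of all genes tested were called higher at an adjusted p under 0.05. Prdm10 was lower in HSC, where 17.6% of all genes were called lower, and 5 members had no call. In all, 37.1% of the genes tested were called in either direction. The median log2 change of the members tested was 0.11, beside 0.00 for all genes.

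**Figure D1:**
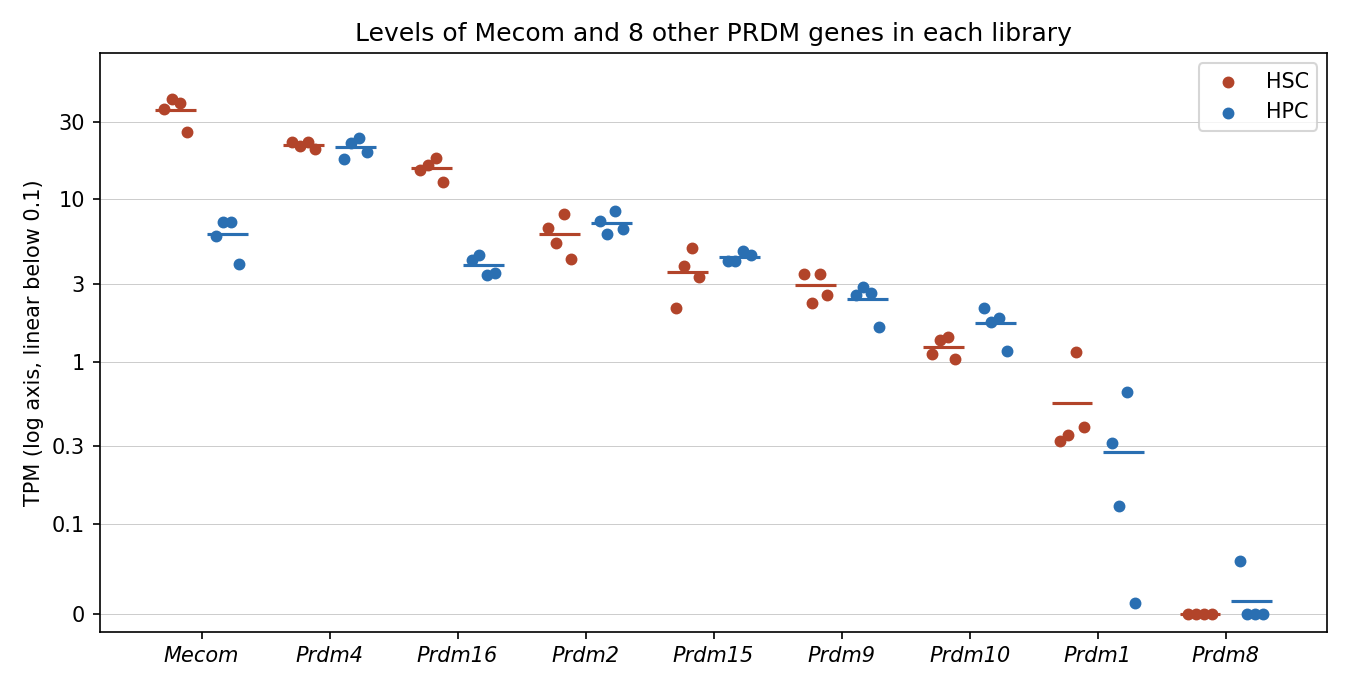
TPM of the 9 genes in each library (points; log axis, linear below 0.1), with the mean of the 4 libraries of a fraction as a bar, HSC left of HPC. The Mecom and Prdm16 points of the fractions lie fully apart (25.9 to 41.6 against 3.97 to 7.27 TPM for Mecom), and those of every other gene overlap.

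Among the members that recruit or carry histone modifying activity, Prdm4 lay at nearly the same mean level in both fractions. Prdm4 (gene 72843, chromosome 10, 85891964 to 85917152, minus strand), which works with the arginine methyltransferase Prmt5, had 22.6, 21.5, 22.7 and 20.3 TPM in the HSC libraries, against 17.7, 22.4, 24 and 19.6 TPM in the HPC libraries. The HSC values all fell inside the HPC range. The log2 change was -0.00 ± 0.12 (edgeR adjusted p = 1.0). Prdm2 (gene 110593, chromosome 4, 143107391 to 143212736, minus strand), known as the retinoblastoma-interacting protein RIZ, had 6.64, 5.43, 8.19 and 4.31 TPM in the HSC libraries, against 7.37, 6.17, 8.53 and 6.56 TPM in the HPC libraries. The fractions overlapped, and the log2 change was -0.29 ± 0.16 (edgeR adjusted p = 0.17).

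Prdm10 was the only member called lower in HSC, and the call did not hold in most fits that left out a library. Prdm10 (gene 382066, chromosome 9, 31276104 to 31381731, plus strand), known as an activator of Flcn, had 1.11, 1.35, 1.43 and 1.03 TPM in the HSC libraries, against 2.14, 1.74, 1.85 and 1.17 TPM in the HPC libraries. HPC library 4 lay inside the HSC range in TPM, while in CPM the fractions did not overlap. Its level was 9.47 ± 0.818 CPM in HSC, against 13.8 ± 2.71 CPM in HPC (SD, n = 4 each), with a log2 change of -0.54 ± 0.19 (edgeR adjusted p = 0.037). The call was lost when any library other than HPC library 4 was left out (log2 changes -0.67 to -0.44, edgeR adjusted p 0.012 to 0.11 over the 8 such fits). It was also lost with exon-exon reads (-0.43, adjusted p = 0.17) and with all reads of the gene (-0.28, adjusted p = 0.13). Without overlap in CPM were 3 members, Mecom, Prdm16 and Prdm10, beside 36.7% of all genes tested, and in TPM 2, Mecom and Prdm16, beside 34.8%.

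Prdm15, reported in mouse embryonic stem cells as an activator of Rspo1 and Spry1, had no call. Prdm15 (gene 114604, chromosome 16, 97791467 to 97852100, minus strand) had 2.13, 3.91, 5.0 and 3.33 TPM in the HSC libraries, against 4.16, 4.18, 4.78 and 4.56 TPM in the HPC libraries. HSC library 3 was the highest of all 8 and HSC library 1 the lowest. The log2 change was -0.37 ± 0.21 (edgeR adjusted p = 0.19), and -0.20 without HSC library 1 (adjusted p = 0.45; 0.088 to 0.45 over the fits that left out 1 library).

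Prdm9 and Prdm1 are best known outside stem cells. Prdm9 (gene 213389, chromosome 17, 15543072 to 15564376, minus strand), the histone methyltransferase that places meiotic recombination in germ cells, had 3.45, 2.29, 3.49 and 2.59 TPM in the HSC libraries, against 2.58, 2.89, 2.66 and 1.63 TPM in the HPC libraries. The fractions overlapped (log2 0.23 ± 0.23, edgeR adjusted p = 0.47). The 4 germ cell markers summed to 3.67 to 6.02 CPM in HSC, against 30.3 to 40.9 CPM in HPC, most of it Ddx4 (2.36 to 4.11 CPM in HSC, against 28.9 to 39.4 CPM in HPC), and their part in the Prdm9 level was not tested. Prdm9 exon reads crossed exon junctions, with 27 to 61 such reads in each HSC library and 32 to 64 in each HPC library.

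Prdm1 (gene 12142, chromosome 10, 44437174 to 44528560, minus strand) rested on few reads. It had 23, 27, 87 and 34 exon reads in the HSC libraries, against 25, 11, 48 and 1 in the HPC libraries. In TPM this was 0.326, 0.353, 1.15 and 0.398 in HSC, against 0.315, 0.130, 0.649 and 0.0118 in HPC. Library 3 was the highest in each fraction, and the fractions overlapped. The log2 change of 0.96 ± 0.73 missed the threshold (edgeR adjusted p = 0.34), and it was 0.42 without HSC library 3, 0.56 without HPC library 4 and 1.79 without HPC library 3 (adjusted p 0.097 to 0.73 over the fits that left out 1 library). Plasma cell markers (Sdc1, Jchain, Mzb1, Irf4, Xbp1) summed to 311 to 443 CPM in HSC, against 293 to 429 CPM in HPC, with 1 higher and 1 lower of 5, and their part in the Prdm1 level was not tested.

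Prdm8, a neural factor of the family, was not detectable in HSC exons at this depth. Prdm8 (gene 77630, chromosome 5, 98167203 to 98187454, plus strand) had 0 exon reads in every HSC library, against 2, 0, 0 and 0 in the HPC libraries. The difference in CPM gave p = 1.0 in an exact two-sided permutation test, whose smallest possible value with 4 against 4 libraries is 0.0286. Its introns held 1, 1, 1 and 6 reads in HSC, against 10, 1, 6 and 0 in HPC.

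The order of levels differed between the fractions in where Mecom and Prdm16 stood. In HSC it ran Mecom (35.9 ± 6.97 TPM), Prdm4 (21.8 ± 1.10), Prdm16 (15.6 ± 2.21), Prdm2 (6.14 ± 1.66), Prdm15 (3.59 ± 1.20), Prdm9 (2.96 ± 0.608), Prdm10 (1.23 ± 0.189), Prdm1 (0.557 ± 0.397) and Prdm8 at 0 (SD, n = 4). Of these neighbours, Prdm2 and Prdm15, Prdm15 and Prdm9, and Prdm10 and Prdm1 overlapped in their ranges, and the other pairs did not. In HPC it ran Prdm4 (20.9 ± 2.79 TPM), Prdm2 (7.16 ± 1.04), Mecom (6.10 ± 1.55), Prdm15 (4.42 ± 0.302), Prdm16 (3.94 ± 0.547), Prdm9 (2.44 ± 0.555), Prdm10 (1.73 ± 0.407), Prdm1 (0.277 ± 0.278) and Prdm8 (0.0146 ± 0.0292). There the ranges of Prdm2 and Mecom, Mecom and Prdm15, Prdm15 and Prdm16, Prdm9 and Prdm10, and Prdm1 and Prdm8 overlapped.

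Added together, the 9 genes came to 87.7 ± 12.3 TPM in HSC and 47.0 ± 5.32 TPM in HPC (SD, n = 4 each). Mecom made up 40.7 ± 3.43% of the sum in HSC and 12.8 ± 2.18% in HPC. Mecom and Prdm16 together made up 54.8% to 62.4% in the HSC libraries and 18.3% to 24% in the HPC libraries. Prdm4, which had no call of its own, made up 25.1 ± 2.75% in HSC and 44.5 ± 3.35% in HPC. The ratio of Mecom to Prdm16 in TPM was 2.02 to 2.56 in the HSC libraries and 1.13 to 2.11 in the HPC libraries, so the ranges overlapped.

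**Figure D2:**
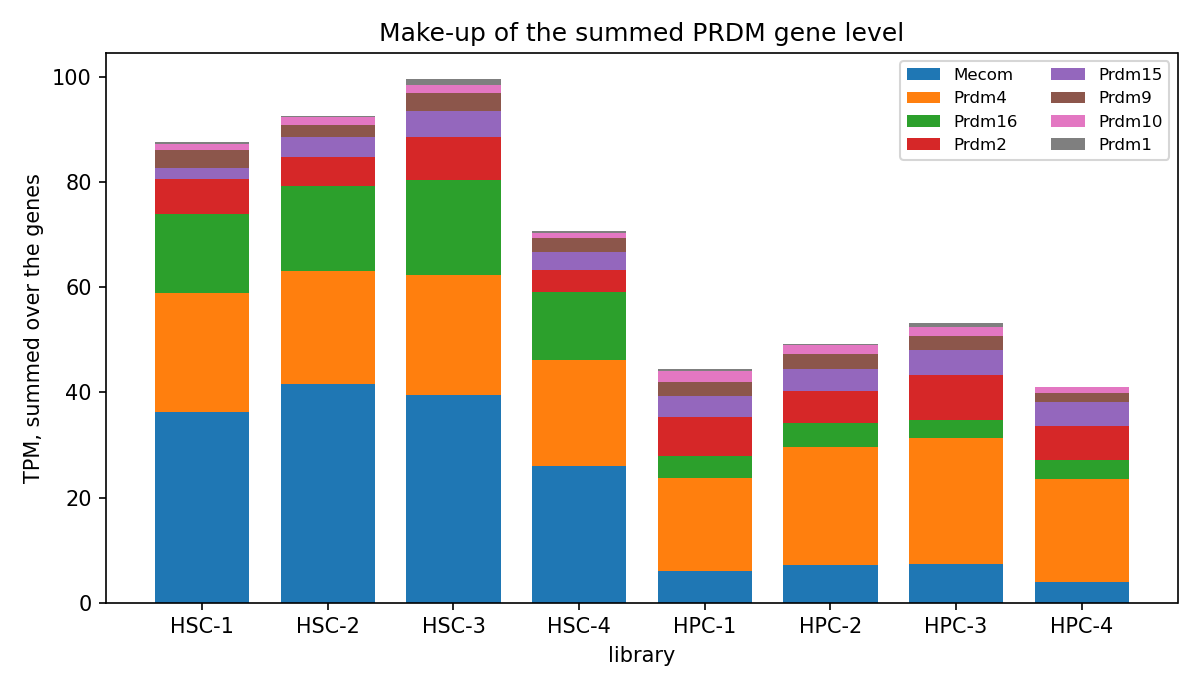
TPM of 8 of the genes stacked for each library, HSC left and HPC right (Prdm8 is too low to draw). The sums run from 70.8 to 99.7 TPM in HSC and from 41.1 to 53.2 TPM in HPC, with the Mecom and Prdm16 segments taller in HSC and the Prdm4 segment between 17.7 and 24 TPM.

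Intron reads, whose source was not tested, can come from unspliced RNA or from other transcripts inside introns, among others. They were counted apart in the same files and tested in a fit of their own. Mecom spans 558488 bases with 9032 bases of exon, and most of its reads fell in introns. Its intron level was 1541, 1279, 1367 and 1045 CPM in the HSC libraries, against 466, 502, 501 and 377 CPM in the HPC libraries. The fractions did not overlap, and the log2 change was 1.5 ± 0.15 (edgeR adjusted p = 7.4e-06). For Prdm16 the intron level was 329, 320.4, 382 and 264 CPM in the HSC libraries, against 93.7, 102, 107 and 78.0 CPM in the HPC libraries. These did not overlap either, at a log2 change of 1.76 ± 0.15 (edgeR adjusted p = 1.7e-06). Of 15142 genes tested on intron reads, 10.8% were called higher in HSC, 9.43% lower and 20.2% in either direction. Of the 8 members in this fit, 2 had a call higher in HSC and 0 a call lower, in edgeR and in DESeq2 alike, and 0 were lower at an unadjusted p under 0.05. Prdm2 came nearest to a lower call, at -0.37 ± 0.18 (unadjusted p = 0.060, edgeR adjusted p = 0.18). Prdm10, called lower in exon reads, gave -0.13 ± 0.16 in introns (adjusted p = 0.66), and Prdm4, Prdm9, Prdm15 and Prdm1 lay between -0.19 and 0.47.

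**Figure D3:**
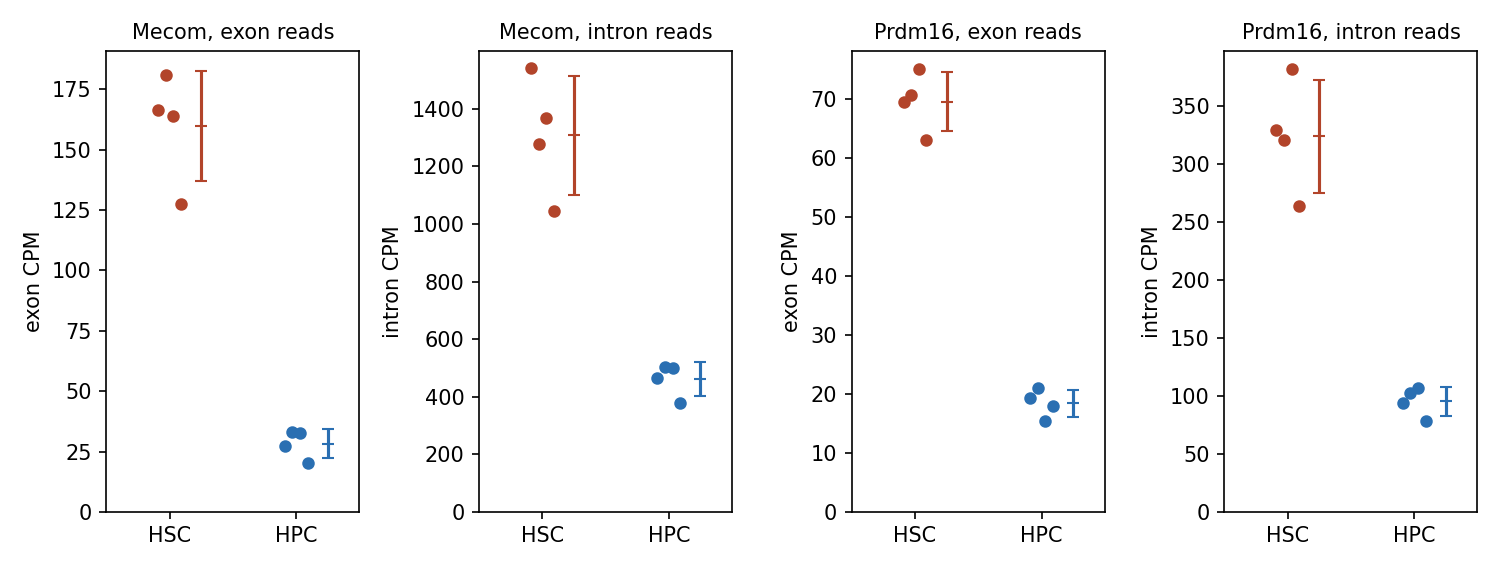
Exon CPM and intron CPM of Mecom and Prdm16 in each library (points), HSC left of HPC, with mean and SD beside them and a separate axis from 0 in each panel. All 4 HSC points lie above all 4 HPC points in every panel, with Mecom introns at 1045 to 1541 CPM in HSC, against 377 to 502 CPM in HPC.

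The exon change of Mecom was larger than its intron change. In a fit over exon and intron reads of each library with the library as a block, a test added after the data were seen, the difference was 0.98 ± 0.14 on the log2 scale (edgeR adjusted p = 0.0016). It was called again in all 8 fits that left out 1 library, with values from 0.92 to 1.06. Of 11449 genes in this fit, 1.06% had an exon change called higher than the intron change, 0.699% one called lower, and 1.76% were called in either direction. For Prdm16 the difference was 0.13 ± 0.16 (adjusted p = 0.84), and the other 6 members tested had no call either. Whether Mecom and Prdm16 differ in this was not tested.

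Seen as a share, introns held 69.2% to 76.5% of the Mecom gene reads in the HSC libraries and 82.5% to 84.5% in the HPC libraries. For Prdm16 the share was 53.4% to 62.6% in HSC and 55.7% to 71.2% in HPC, and these ranges overlapped. Over all genes the intron share was 22% to 25.9% in the HSC libraries and 22.3% to 26.5% in the HPC libraries, so the libraries of the fractions overlapped in this measure. Exon-exon reads made up 33.6 ± 4.38% of the Mecom exon reads in HSC and 33.5 ± 4.57% in HPC (SD, n = 4 each). Mecom gives a long MDS1-EVI1 form from the distal start and a shorter EVI1 form from inside the locus, and reads counted per gene cannot tell them apart. Of the genes whose span overlaps a member, 8 over 6 members, Gm10910 alone had reads, 94 in HSC and 68 in HPC, and it lies in Prdm10 on the same strand. The other overlapping genes have an exon length of 0 in the annotation. Their count of 0 reads does not show that no transcript was present there.

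**Figure D4:**
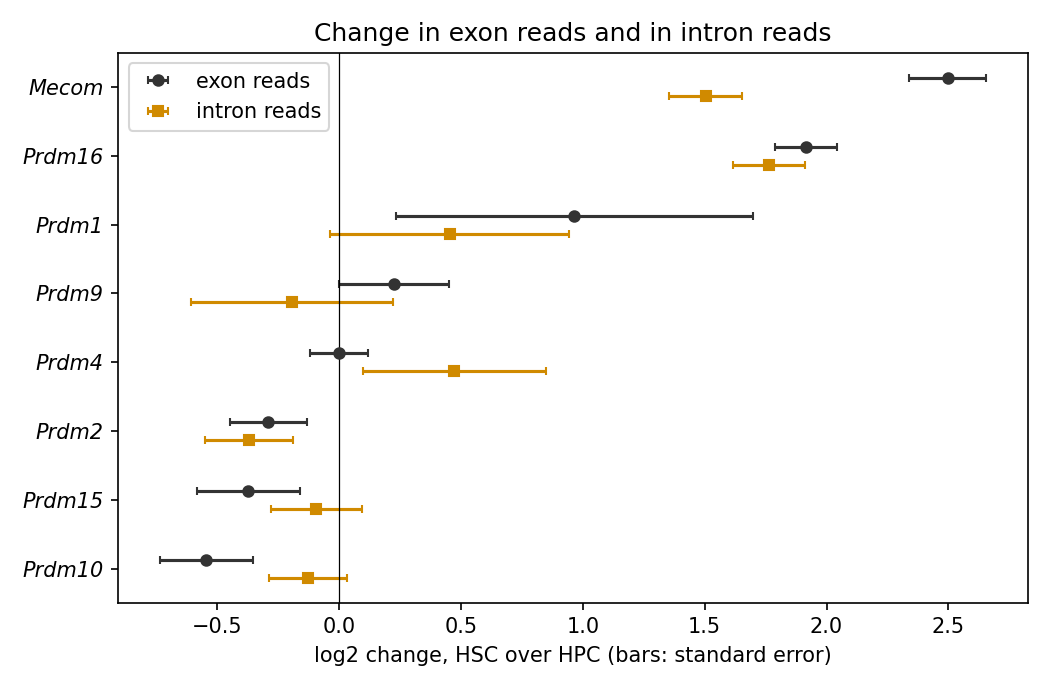
Log2 change, HSC over HPC, of exon reads (circles) and intron reads (squares) for the 8 members tested, with standard errors as bars. Mecom has its exon change at 2.50 and its intron change at 1.5, while both lie close together for Prdm16 (1.92 and 1.76).

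Of 6 further genes of the family, 2 had enough exon reads for a test, and edgeR called 0 of them, with 1, Prdm11, higher in HSC at an unadjusted p under 0.05 and in DESeq2. Prdm11 had 3.14, 2.21, 1.99 and 2.23 TPM in the HSC libraries, against 0.392, 0.575, 0.540 and 1.73 TPM in the HPC libraries. Its change of 1.46 ± 0.55 missed the threshold (edgeR adjusted p = 0.051), and it was 2.22 without HPC library 4, whose value lay apart from the other HPC libraries (adjusted p = 0.0062; 0.0062 to 0.13 over the fits that left out 1 library). DESeq2, unique exon reads, exon-exon reads and all reads of the gene gave it a call (adjusted p = 0.033, 0.047, 0.0058 and 0.0017). In introns Prdm11 was higher in HSC as well, at 134 ± 8.08 CPM in HSC, against 86.7 ± 7.75 CPM in HPC (log2 0.63 ± 0.13, edgeR adjusted p = 0.0027). Zfp408, whose human counterpart is also called PRDM17, had no call in exon reads (0.16 ± 0.17, edgeR adjusted p = 0.50). Its introns were higher in HSC, at 41.1 to 49.6 CPM in the HSC libraries, against 24.4 to 35.8 CPM in the HPC libraries (0.61 ± 0.18, edgeR adjusted p = 0.026). That call was lost in 5 of the 8 fits that left out 1 library (adjusted p 0.023 to 0.087), without both libraries numbered 4 (0.079) and with no count filter (0.052). Prdm12, Prdm13 and Prdm14 had 0 exon reads in all 8 libraries, and Prdm6 had 1, in HSC.

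Genes reported as targets of Evi1, the shorter Mecom protein, went both ways. Of 7 tested, 4 were called higher in HSC (beside 19.6% of all genes tested), 2 lower (beside 17.6%), and Erg had no call, with a median of 0.48. Gata2, a transcription factor of stem cells, stood at 380.4 ± 14.0 CPM in HSC, against 178 ± 16 CPM in HPC (SD, n = 4 each; log2 1.10 ± 0.09, edgeR adjusted p = 3.3e-07). The other 3 called higher were Itga6, Adgrg1 and Angpt1 (0.84, 0.60 and 0.48). Lower were the myeloid factors Cebpa (1.82 ± 1.45 CPM in HSC, against 40.0 ± 5.48 CPM in HPC) and Spi1, which encodes PU.1 (73.9 ± 8.51 CPM in HSC, against 166 ± 14.0 CPM in HPC). The list was drawn from general knowledge of targets in other settings, and binding was not measured here. It holds no reported direction for each target, so whether the calls follow the reported directions was not tested.

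Of 19 enzymes and partners that PRDM proteins recruit, 0 had a call higher in HSC, 6 one lower, and 13 had no call, with a median of -0.11. Over all genes tested, 19.6% were called higher, 17.6% lower and 37.1% in either direction. Against the count of 0 higher in edgeR stood 1 gene at an unadjusted p under 0.05, Rcor1 (0.31 ± 0.13), and 0 in DESeq2. Lower were the DNA methyltransferase Dnmt3b (77.8 ± 7.20 CPM in HSC, against 142 ± 13.4 CPM in HPC, log2 -0.87 ± 0.10, edgeR adjusted p = 1.1e-05), the H3K9 methyltransferase Suv39h1 (-0.50 ± 0.09) and the co-repressor scaffold Sin3a (-0.47 ± 0.10). The co-repressors Ctbp1 and Ctbp2, which bind Evi1 and Prdm16, stood at 445 ± 41.1 and 63.5 ± 4.55 CPM in HSC, beside 429 ± 48.8 and 56.7 ± 6.50 CPM in HPC, and had no call. Prmt5, the partner of Prdm4, had none either (129.7 ± 12.6 CPM in HSC, against 135 ± 6.38 CPM in HPC). Ctbp1, Ctbp2 and Prmt5 were chosen after their values were seen.

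The lists for the other members were short, and their calls stand beside 19.6% of all genes tested called higher and 17.6% called lower. Of the 5 Prdm16 partners and targets (Mfn2, Hgf, Cebpb, Ppargc1a, Med1), 0 were called by edgeR, with a median of 0.22. At an unadjusted p under 0.05 there were 2 higher, Cebpb (1.24 ± 0.57) and Ppargc1a (1.15 ± 0.48), and 0 lower, and DESeq2 called 1, Ppargc1a (adjusted p = 0.049). Of 6 Prdm1 target and opposing genes tested, Ciita, the regulator of MHC class II genes, was higher (6.50 ± 1.10 CPM in HSC, against 2.10 ± 0.543 CPM in HPC, log2 1.63 ± 0.31, edgeR adjusted p = 0.00070). Id3 was higher as well (1.35 ± 0.46, edgeR adjusted p = 0.034, lost in 6 of the 8 fits that left out 1 library, with adjusted p 0.030 to 0.11, without both libraries numbered 4 at 0.055 and with no count filter at 0.053), and Myc was lower (345 ± 24.4 CPM in HSC, against 560 ± 30.8 CPM in HPC, log2 -0.70 ± 0.09). Of 6 meiosis genes tested, Spo11, which makes the breaks that start recombination, was higher at 13.3 ± 1.5 CPM in HSC, against 2.96 ± 0.799 CPM in HPC (2.17 ± 0.25, edgeR adjusted p = 6.8e-06). Lower were Hells, a chromatin remodeller also used in DNA replication (-1.27 ± 0.11), and Zcwpw1, a reader of Prdm9 marks (-0.68 ± 0.14). Ewsr1 was lower as well (-0.31 ± 0.11, edgeR adjusted p = 0.047, lost in 5 of the 8 fits, with adjusted p 0.015 to 0.14). The Ewsr1 call was also lost with a filter of 50 reads in 4 libraries (edgeR adjusted p = 0.055) and with all reads of the gene (0.06). Too few exon reads for a test were found for Sycp1 and Hormad1, with 0 in all libraries, and for Sycp3, with 9 in HSC and 6 in HPC. Spry1, a reported Prdm15 target, was higher (5.64 ± 1.14 CPM in HSC, against 2.95 ± 0.513 CPM in HPC, log2 0.93 ± 0.29, edgeR adjusted p = 0.021). This Spry1 call was lost without HSC library 1 or 2 or HPC library 4 (edgeR adjusted p 0.019 to 0.068 over the 8 fits). It was also lost without both libraries numbered 4 (edgeR adjusted p = 0.058). Rspo1, the other reported Prdm15 target, missed the filter, with 10 exon reads in HSC, against 51 in HPC. Flcn, the reported Prdm10 target, had no call (0.19 ± 0.13).

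**Figure D5:**
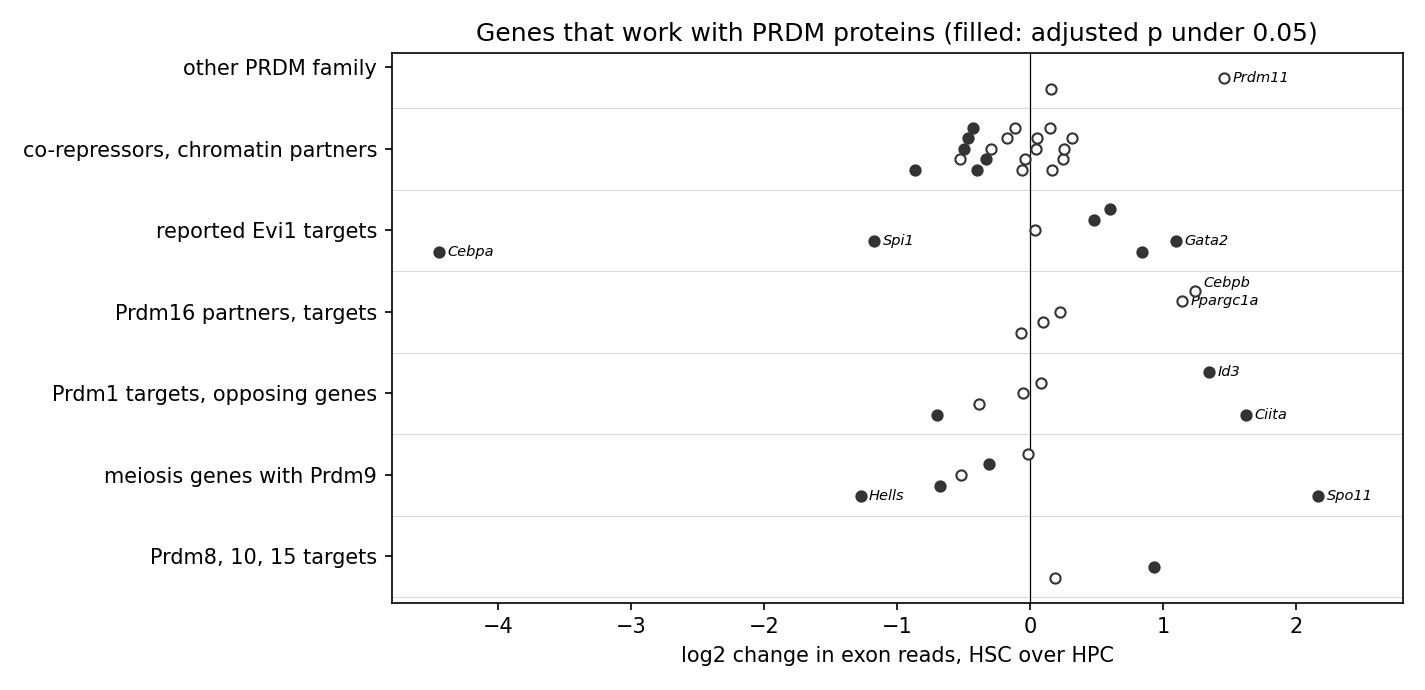
Log2 change in exon reads, HSC over HPC, of the genes tested in each list (filled points: edgeR adjusted p under 0.05; genes with a change of at least 1 in size are labelled). Gata2 at 1.10 and Cebpa at -4.44 mark the ends of the reported Evi1 targets.

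The genes most like Mecom over the 8 libraries were found by the root mean square distance of mean-centred log2 CPM among 10259 genes (mean level 5 CPM or more). They were Tnfaip2 (chromosome 12, 111442447 to 111455018; distance 0.163), the mTOR-associated Prr5l (chromosome 2; 0.184), the GTPase Gimap3 (chromosome 6; 0.192), the proteoglycan Bgn (chromosome X; 0.194) and the actin regulator Eps8l2 (chromosome 7; 0.195). Tnfaip2 stood at 104 ± 6.59 CPM in HSC, against 18.4 ± 2.76 CPM in HPC, a log2 change of 2.50. Prdm16 came 104th for Mecom, at a distance of 0.385. Nearest to Prdm16 were Mylk, the myosin light chain kinase (chromosome 16, 34745199 to 35002436; distance 0.0716), the actin-associated Palld (chromosome 8; 0.0806), the cytokine Ctf1 (chromosome 7; 0.101), Cpox of heme synthesis (chromosome 16; 0.123) and the interferon-inducible GTPase Iigp1 (chromosome 18; 0.131). Mecom came 248th for Prdm16. With 2 fractions, this measure is set mainly by the size of the change between them, and it is a description only.

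Markers of other cells moved with the fractions as well. Endothelial cells, which are known to express Mecom and Prdm16, were represented by Cdh5, Emcn, Kdr, Plvap and Stab2, of which 3 of 5 were higher in HSC. Their sum was 39.2 to 50.03 CPM in the HSC libraries and 21.1 to 34.0 CPM in the HPC libraries. Kdr, a VEGF receptor, averaged 5.15 CPM in HSC, against 0.699 CPM in HPC (log2 2.86, edgeR adjusted p = 0.00024), and Emcn and Plvap were higher by 0.50 and 0.75 (edgeR adjusted p = 0.020 and 0.036). Cdh5 stood at 0 to 1.67 CPM in HSC, against 0 to 1.06 CPM in HPC, with no call (edgeR adjusted p = 0.70). Red cell markers summed to 126 to 324 CPM in HSC, against 14.2 to 104 CPM in HPC, with 2 of 4 higher, and megakaryocyte markers to 157 to 227 CPM in HSC, against 145 to 193 CPM in HPC, with 2 of 4 higher and 1 lower. Neutrophil and monocyte markers summed to 83.7 to 267 CPM in HSC, against 1632 to 2696 CPM in HPC, with 3 of 5 lower. Markers of B cells (2 of 4 tested higher), of T and NK cells (3 higher and 1 lower of 4 tested, Trac at 0 reads) and of stroma (1 tested, higher) gave sums of 58.9 to 76.2, 66.4 to 96.5 and 5.72 to 14.95 CPM in HSC, against 52.3 to 61.9, 280.02 to 372 and 0.646 to 6.98 CPM in HPC. Most of the T and NK sum was Nkg7, the gene lower in HSC (mean 44.6 CPM, against 330 CPM in HPC), while Cd3e, Cd3g and Cd3d were higher. The part of these cells in the Mecom and Prdm16 results was not tested.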

How the data were processed

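The 9 genes, the gene lists and the markers were chosen with earlier results of these data known, the lists from general knowledge. Per the labels' protocols, RNA was taken up in ISOGEN, amplified as cDNA with the SMARTer Pico kit (18 PCR cycles) and made into Nextera XT libraries. The submitters' processing notes name the build mm10. Which aligner and counter were used, and whether by strand, is not given in the sources used, so overlapping genes cannot be told apart. Per the file headers, the deposited counts are whole reads in exons, introns, genes and exon-exon junctions, as totals and as uniquely placed reads. The authors also deposited TPM and RPKM from exon reads; TPM gave the levels, and RPKM entered no result. Entries of 1 gene ID were summed.

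Total exon reads and total intron reads were tested in separate fits (edgeR 4.0.16 in R 4.3.3; filterByExpr, TMM, quasi-likelihood test, no covariate), with Benjamini-Hochberg adjustment over all genes tested and a threshold of 0.05. A log2 change is HSC over HPC. Prdm8, which missed the filter, was tested by exact permutation (scipy 1.17.1). Likeness used log2 CPM with a prior count of 2. Named were all 9 genes, up to 3 called genes per list and direction with the smallest adjusted p, the 5 genes most like Mecom and the 5 most like Prdm16, and overlapping genes. Some genes of the lists are not reported here and were left out of the list counts. Other genes named were chosen after their values were seen. The fits were tested on simulated data. With 100 genes changed 1.5-fold and 100 changed 2-fold, the exon fit recovered 45 and 73, with 8 false among 126 calls. The intron fit recovered 7 and 23, with 5 false among 35 calls. The exon-against-intron fit recovered 31 of 200 genes changed 2-fold in exon reads, with 0 false calls. No call in the intron or exon-against-intron fit therefore does not show that a gene was unchanged. Alternatives were RLE scaling, other count filters, DESeq2 1.42.0, the replicate number as a block, unique reads, exon-exon reads, main chromosomes only and each library left out. Added after the data were seen were total gene reads, unique intron reads, leaving out both libraries numbered 4, and the exon-against-intron test. No pair of libraries looked like 1 library deposited again, since the mean chi-square per gene was 11.5 to 38.1 within a fraction.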

Additional observations from a re-analysis of the deposited data

Results flagged for a closer look

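Of 35 groups of 4 libraries examined for the 9 genes, 4 held a library far from the other 3 by Dixon's test, which picks about 1 in 20 groups by chance. Prdm1 stood at 1.15 TPM in HSC library 3, with 0.326 to 0.398 TPM in the other HSC libraries. Prdm8 introns stood at 1.15 CPM in HSC library 4, from 6 reads, with 0.152 to 0.170 CPM in the other HSC libraries. Prdm8 exons stood at 0.0584 TPM in HPC library 1, from 2 reads, with 0 in the other HPC libraries. Prdm15 introns stood at 76.5 CPM in HPC library 4, with 48.7 to 51.8 CPM in the other HPC libraries. What set these libraries apart was not tested.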

How the results depend on the processing

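Mecom and Prdm16 were higher in HSC in exon and in intron reads under every alternative run. The count of members lower in HSC, 1 with all libraries, was 0 to 1 when each library was left out, 0 with exon-exon reads and 0 with total gene reads, which all concern Prdm10. In the exon-against-intron test, leaving out a library gave 79 to 99 genes higher and 35 to 63 lower, against 121 and 80 with all libraries. Levels built from unique exon reads per kilobase were 1.28 to 1.32 times the TPM, with the same order of genes, and 13 of them moved by more than 1 SD. In HSC, Mecom then stood at 47.0, Prdm4 at 28.5, Prdm16 at 20.4, Prdm2 at 8.03, Prdm9 at 3.86 and Prdm10 at 1.61. In HPC, Prdm4 stood at 27.5, Prdm2 at 9.41, Mecom at 8.00, Prdm15 at 5.82, Prdm16 at 5.17, Prdm9 at 3.19 and Prdm10 at 2.26. Signs turned for values near 0 without a call. Prdm4 in exon reads was 0.0012 with RLE scaling, 0.0126 with the 50-read filter, 0.0055 with the replicate block, 0.0011 with DESeq2, and -0.0905 to 0.0395 without 1 library. Prdm9 was -0.19 with exon-exon reads. Prdm15 in introns was 0.0747 without both libraries numbered 4 and -0.20 to 0.0740 without 1 library. In the exon-against-intron test, Prdm2 lay between -0.0739 and 0.105 and Prdm16 between -0.0005 and 0.21 without 1 library. The cause was not tested. Replicate numbers gave no consistent pairing: deviations of HSC and HPC libraries of the same number correlated at -0.01, -0.12, 0.09 and 0.15. For libraries of different numbers the values ran from -0.20 to 0.07. Whether libraries of the same number shared a batch was not tested. With the replicate block, 2588 genes were higher and 2448 lower in exon reads and 1477 and 1341 in intron reads, with 2 members higher and 1 lower in exon reads, and 2 and 0 in intron reads. Under the block Id3 had no call (1.35, edgeR adjusted p = 0.067). Depth limits what can be said of Prdm8, Prdm1 and the family members with 0 or 1 exon read.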
